A study of Mus musculus with 6 samples.

Results

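Adipokines are hormones and signalling proteins that fat tissue releases into the blood. Here the genes of 8 such proteins, Lep, Adipoq, Retn, Cfd, Rbp4, Nampt, Rarres2 and Serpina12, and of the adiponectin receptors Adipor1 and Adipor2 were read in the fat of young mice. The 10 genes, of 28902 gene names on the array, were found by the name that the scanner files give each spot. They were represented by 18 of the 41174 probes on the array, and 17 of these were among the 27975 probes bright enough to be tested. The tissue was epididymal white adipose tissue, a visceral depot beside the testis, from male mice on a C57BL/6 background aged 9 to 10 weeks. The wild type group and the patDp/+ group held 3 mice each, described as separate animals, with 1 array per mouse. patDp/+ mice carry an extra copy, inherited from the father, of the part of chromosome 7 that corresponds to human 15q11-13. The copy is constitutive, so fat was not the only tissue to carry it. From each mouse, 200 ng of total RNA was labelled with Cy3 and hybridised to a one-colour Agilent array. Each of the 3 slides held the wild type array and the patDp/+ array of the same replicate number. The series' title speaks of a late onset of obesity, and the comparison asks whether adipokine transcripts already differed in young adults.

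Leptin is released in proportion to fat stores and acts on the hypothalamus to lower food intake, and its transcript is a common readout of fat cell size. Adiponectin is made almost only by fat cells, circulates as multimers and acts through the receptors encoded by Adipor1 and Adipor2 on AMP-activated kinase and ceramide breakdown. Resistin, adipsin (complement factor D, Cfd), retinol-binding protein 4, chemerin (Rarres2) and vaspin (Serpina12) are further secreted products of fat, while Nampt encodes the rate-limiting enzyme of NAD salvage, whose secreted form is called visfatin.

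The probes are 60 letters long, and 30 letters are given for those on which the results below turn, the first 30 for Lep, Adipoq and Nampt. Lep and Adipoq have 1 probe each, and the 3 Nampt probes are shown because they lie apart and share few letters. Positions are on mm9, as in the scanner files, and the place of each probe within the transcript (exon, untranslated region) was not analysed here. The Lep letters lie at chr6:29023234-29023263, the Adipoq letters at chr16:23157576-23157605, and the Nampt letters at chr12:33535475-33535504, chr12:33537851-33537880 and chr12:33524065-33524094 for probes 1, 2 and 3, all on the plus strand.
Lep probe 1: agtttggatcttgggttttctgttaagaga
Adipoq probe 1: tgtatggggatggggaccacaatggactct
Nampt probe 1: actaacatgttcattgtacagatgtgtggg
Nampt probe 2: tgcagttgacattagtcccctcaattcata
Nampt probe 3: atactgtggcgggaattgctctaattaaaa

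The 2 Retn probes are shown because they overlap, so that they are not separate readings of the gene. They share a run of 22 letters, in capitals, on the plus strand of chromosome 8. Shown are the first 30 letters of probe 1 and the last 30 of probe 2, which ends with the shared run. The scanner files place probe 1 at 3656145 to 3656966 and probe 2 at 3656107 to 3656928. Each annotated span of 822 bases is longer than the probe itself.
Retn probe 1: TTTCCAAATGCAATAAAGAACAttggctta
Retn probe 2: actccctgTTTCCAAATGCAATAAAGAACA

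No adipokine or receptor probe passed the test between patDp/+ and wild type fat. In limma with Benjamini-Hochberg adjustment over all 27975 tested probes, 0 of the 17 probes passed an adjusted p of 0.05, and the smallest adjusted p among them was 0.951. Over all tested probes the share that passed was also 0%. At an unadjusted p under 0.05 there were 2 of the 17 probes, both of Nampt and both lower in patDp/+, against 5.15% of all tested probes, of which 2.75% were lower and 2.41% higher. That count of 2 became 0 without patDp/+ replicate 2, 1 without wild type replicate 1 or patDp/+ replicate 1, and 4 without patDp/+ replicate 3. In 4 of the 17 probes, 3 of Nampt and 1 of Retn, the groups did not overlap, all with lower values in patDp/+, where 10.4% of all tested probes were without overlap in either direction. Probes of a gene share its RNA, so these counts rest on 2 genes. Of the 17 differences, 7 were above 0 and 10 below, with a median of -0.08 on the log2 scale. Over all tested probes 47.2% of the differences were above 0, and the median was -0.01. In this bulk tissue, fewer cells of a type and less RNA per cell cannot be told apart.

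**Figure D1:**
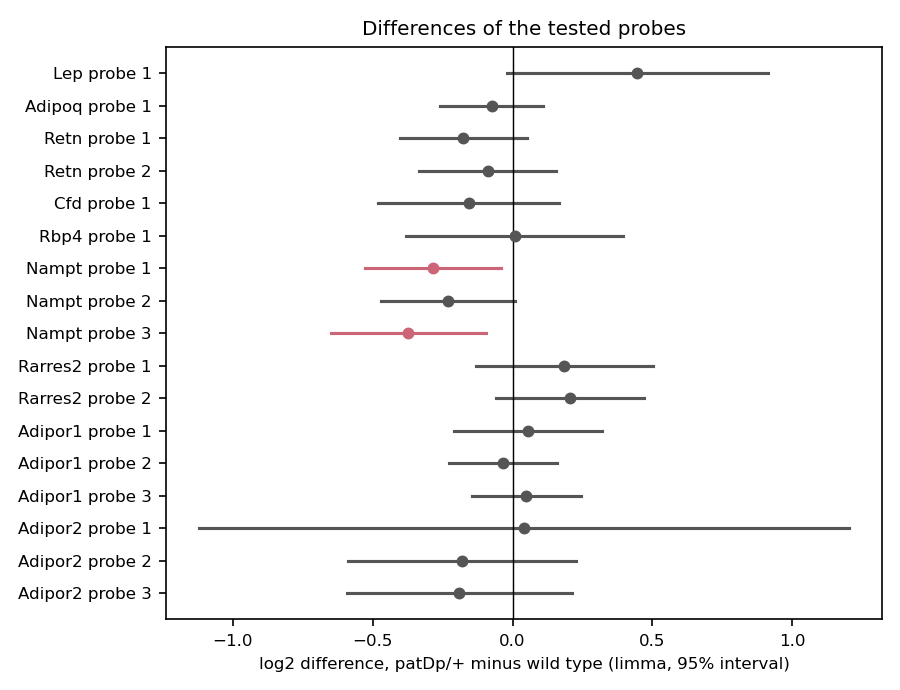
Log2 difference between patDp/+ and wild type (3 arrays each) for the 17 tested probes, with limma's 95% interval; red marks an unadjusted p under 0.05. Only the intervals of Nampt probes 1 and 3 leave out 0, and the widest interval is that of Adipor2 probe 1.

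Lep, the leptin gene, had its highest values on 2 of the 3 patDp/+ arrays. Values are given as log2 of the processed intensity minus the array's 75th percentile, a scale on which a step of 1 is a doubling. Lep read 1.99, 2.31 and 2.16 in wild type replicates 1 to 3 and 2.88, 2.73 and 2.20 in patDp/+ replicates 1 to 3. patDp/+ replicates 1 and 2 lay above every wild type array, while replicate 3 lay among the wild type arrays, so the groups overlapped. The difference was 0.45 ± 0.19 (limma SE, n = 3 per group), a fold of 1.36 with a 95% interval from 0.986 to 1.88. Its p was 0.0579 unadjusted and 0.963 adjusted in limma, and an exact two-sided permutation test of the 6 arrays gave 0.2, where the smallest possible value is 0.1. Within slides 1, 2 and 3 the difference was 0.89, 0.42 and 0.03. Leaving out each array in turn gave 0.31 to 0.65, the lowest without patDp/+ replicate 1 (unadjusted limma p 0.165) and the highest without patDp/+ replicate 3 (unadjusted limma p 0.00306). With normexp background correction it was 0.33 (unadjusted limma p 0.237). The unadjusted limma p was under 0.05 in 7 of 18 alternative settings and the adjusted p in none.

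The Lep spots of an array varied far less than the arrays did. The probe was printed 10 times on each array, giving 60 spots, of which the scanner software had marked 9 as outliers and 51 were used. The SD between the spots used on an array was 0.033, 0.051 and 0.017 in wild type replicates 1 to 3 and 0.022, 0.032 and 0.029 in patDp/+ replicates 1 to 3. The SD between arrays was larger, at 0.16 over the wild type arrays and 0.36 over the patDp/+ arrays. The processed intensity was 3525, 4733 and 4499 in wild type and 7404, 6534 and 4433 in patDp/+. A marked spot on the array of wild type replicate 2 read 2141, well below the other spots there. In the authors' deposited table, the lowest of the 10 Lep values of that array is 9.40, and their mean of 12.02 lies under their median of 12.27. With the marked spots kept, a setting added after the data were seen, the difference was 0.48, and from the deposited values it was 0.51.

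**Figure D2:**
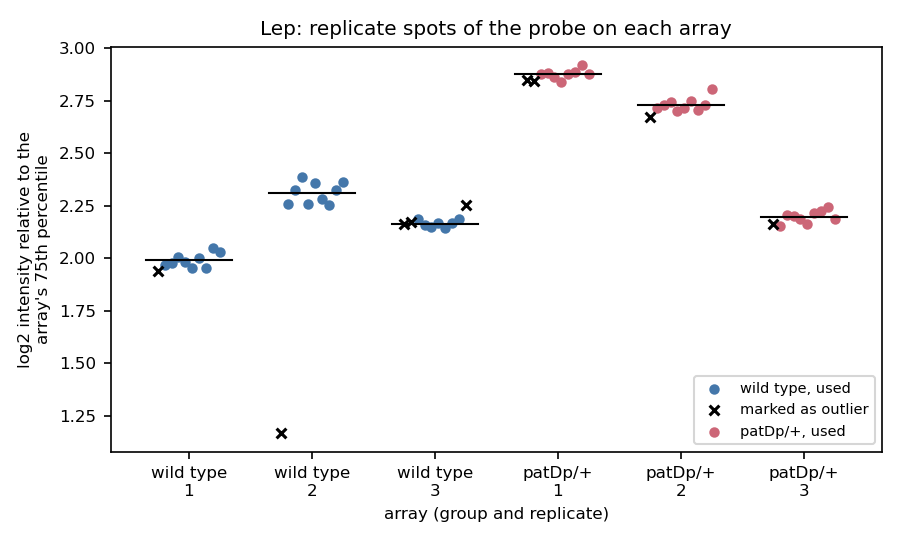
Each of the 10 Lep spots per array, as log2 intensity relative to the array's 75th percentile; circles are the spots used (blue wild type, red patDp/+), crosses those marked as outliers, and bars the mean of the spots used. Spots of an array lie close together, apart from a marked spot on wild type replicate 2 at an intensity of 2141, and patDp/+ replicate 3 lies with the wild type arrays.

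Adipoq, the adiponectin gene, varied little across the 6 mice. It read 8.62, 8.52 and 8.47 in wild type and 8.45, 8.46 and 8.47 in patDp/+ replicates 1 to 3. patDp/+ replicates 1 and 2 lay just below every wild type array, and replicate 3 was level with the lowest of them, so the groups overlapped narrowly. The difference was -0.08 ± 0.08 (limma SE), with a 95% interval from -0.26 to 0.11, an unadjusted p of 0.361 and an adjusted p of 0.971. The interval in folds ran from 0.835 to 1.08. The processed intensity lay between 343372 and 356376 on all 6 arrays, and no Adipoq spot was marked as saturated. Before scaling, patDp/+ replicate 1 read 351650, above wild type replicates 1 and 2 at 349064 and 348877. The order of the arrays thus depended on the scaling.

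Retn, which encodes resistin, a hormone that mouse fat cells release and that opposes insulin action, read slightly lower in patDp/+. Probe 1 read 7.69, 7.66 and 7.63 in wild type and 7.59, 7.33 and 7.53 in patDp/+, and all patDp/+ arrays lay below all wild type arrays. The difference was -0.18 ± 0.09 (limma, unadjusted p 0.107, adjusted p 0.965), and the exact permutation test gave 0.1. Before scaling, patDp/+ replicate 1 read 193940 at probe 1, above wild type replicates 1 and 2 at 182763 and 192630. The lack of overlap at probe 1 thus depended on the scaling. Probe 2 read 7.58, 7.44 and 7.46 in wild type and 7.47, 7.24 and 7.50 in patDp/+, with overlapping groups. Its difference was -0.09 ± 0.10. The array of patDp/+ replicate 2 was the lowest for both probes, and without it the differences were -0.10 and -0.01.

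Cfd encodes adipsin, the serine protease that starts the alternative complement pathway. It read 9.32, 8.92 and 8.88 in wild type and 8.94, 8.83 and 8.89 in patDp/+. Wild type replicate 1 stood above the other 5 arrays, which overlapped. The difference was -0.16 ± 0.13 (limma, unadjusted p 0.283, adjusted p 0.966), and without wild type replicate 1 it was -0.02.

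Rbp4 encodes the carrier of retinol in blood. It read 7.11, 7.56 and 7.48 in wild type and 7.47, 7.16 and 7.55 in patDp/+, so that each group held both low and high arrays. The difference was 0.01 ± 0.16, with a 95% interval from -0.38 to 0.40 and an adjusted limma p of 0.998. Its sign turned under several settings.

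Nampt was the gene with the lowest unadjusted p-values among the 10, and it read lower in patDp/+ at all of its 3 probes. Probe 1 read 2.57, 2.47 and 2.29 in wild type and 2.13, 2.10 and 2.24 in patDp/+. Probe 2 read 1.80, 1.66 and 1.56 in wild type and 1.38, 1.40 and 1.55 in patDp/+. Probe 3 read -0.53, -0.43 and -0.80 in wild type and -0.90, -1.00 and -0.98 in patDp/+. At each probe every patDp/+ array lay below every wild type array, with wild type replicate 3 the nearest to the patDp/+ arrays.

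The Nampt differences were of similar size at the 3 probes. They were -0.29 ± 0.10 for probe 1, a fold of 0.820, -0.23 ± 0.10 for probe 2, and -0.37 ± 0.11 for probe 3, a fold of 0.772. The unadjusted limma p was 0.0278, 0.0562 and 0.0163, and the adjusted p was 0.955, 0.963 and 0.951. The exact permutation test gave 0.1 for each probe, the smallest value that 3 against 3 arrays allow. The slides differed in how far the pair lay apart, with -0.44, -0.37 and -0.05 for probe 1, -0.42, -0.26 and -0.01 for probe 2, and -0.37, -0.57 and -0.18 for probe 3. The starts of the probes are 2376 to 13786 bases apart and no pair shares more than 5 letters in a row, yet across the 6 arrays their values correlated at 0.976, 0.907 and 0.798, given as a description of arrays that share their RNA. Every alternative gave a negative difference at all 3 probes, 18 alternatives for probe 1 and 17 each for probes 2 and 3. With normexp background correction the unadjusted p of probe 3 was 0.146, and with slide as a block that of probe 1 was 0.0647.

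**Figure D3:**
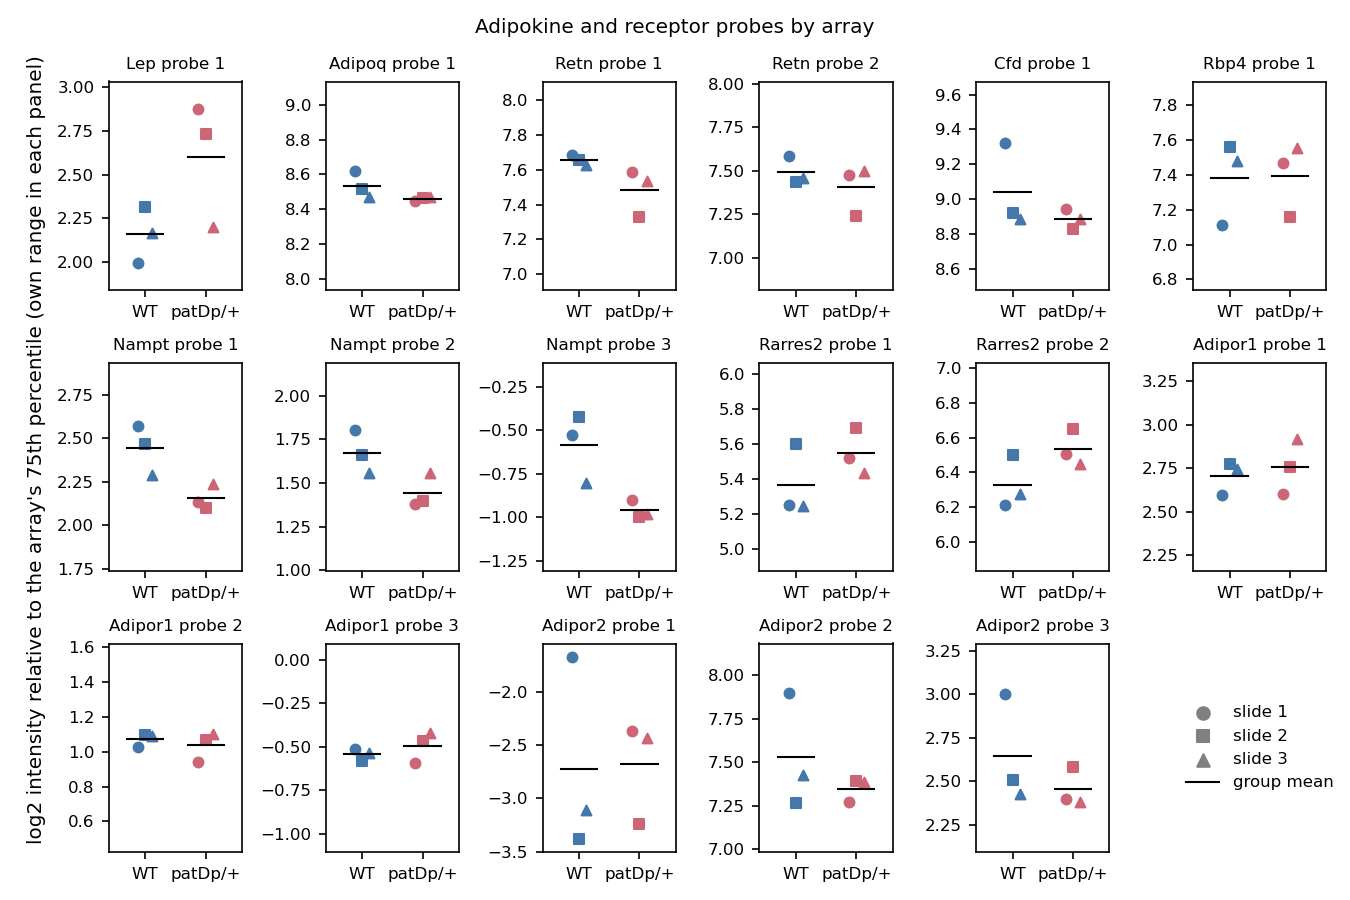
Values of the 17 tested probes on the 6 arrays, as log2 intensity relative to the array's 75th percentile, with the axis range set for each panel; blue is wild type, red patDp/+, marker shape the slide and bars the group mean of 3 arrays. At the 3 Nampt probes all patDp/+ arrays lie below the wild type arrays, while Lep of patDp/+ replicate 3 (slide 3) falls among the wild type values.

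Rarres2 encodes chemerin, a chemoattractant for immune cells that fat also secretes. Probe 2 read 6.21, 6.50 and 6.28 in wild type and 6.51, 6.65 and 6.45 in patDp/+. Wild type replicate 2 lay above patDp/+ replicate 3, so the groups overlapped, though the patDp/+ array was the higher of the pair on every slide. The difference was 0.21 ± 0.11 (limma, unadjusted p 0.106, adjusted p 0.965). Probe 1 gave 0.18 ± 0.13 (unadjusted limma p 0.205), and its patDp/+ array too was the higher on each slide, by 0.27, 0.10 and 0.19. Without wild type replicate 2 the differences were 0.30 for probe 1 and 0.29 for probe 2 (unadjusted limma p 0.0384 and 0.0325), and without patDp/+ replicate 2 they were 0.11 and 0.15. With normexp background correction they were 0.055 and 0.057.

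Serpina12, which encodes vaspin, was not well above background on any of the 6 arrays. Its processed intensity lay between 4.11 and 7.17, with an error of at least 99.5% by the scanner software, so no difference was computed.

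The adiponectin receptors differed between the groups by little more than the standard errors or less. For Adipor1 the 3 probes gave differences of 0.05 ± 0.11, -0.03 ± 0.08 and 0.05 ± 0.08, and the widest of their 95% intervals ran from -0.21 to 0.32. Adipor2 probe 2 read 7.90, 7.27 and 7.43 in wild type and 7.27, 7.39 and 7.39 in patDp/+. Wild type replicate 1 was the high array, and the other 5 lay together. The difference was -0.18 ± 0.17 (limma, unadjusted p 0.323), and without wild type replicate 1 it was 0.0032. Probe 3 of Adipor2 had the same high array, with values of 2.38 to 2.58 on the others, and gave -0.19 ± 0.17, or -0.01 without that array. Probe 1 was dim and spread widely, from -3.38 to -1.68 in wild type and from -3.24 to -2.37 in patDp/+, and its difference was 0.04 ± 0.48.

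**Figure D4:**
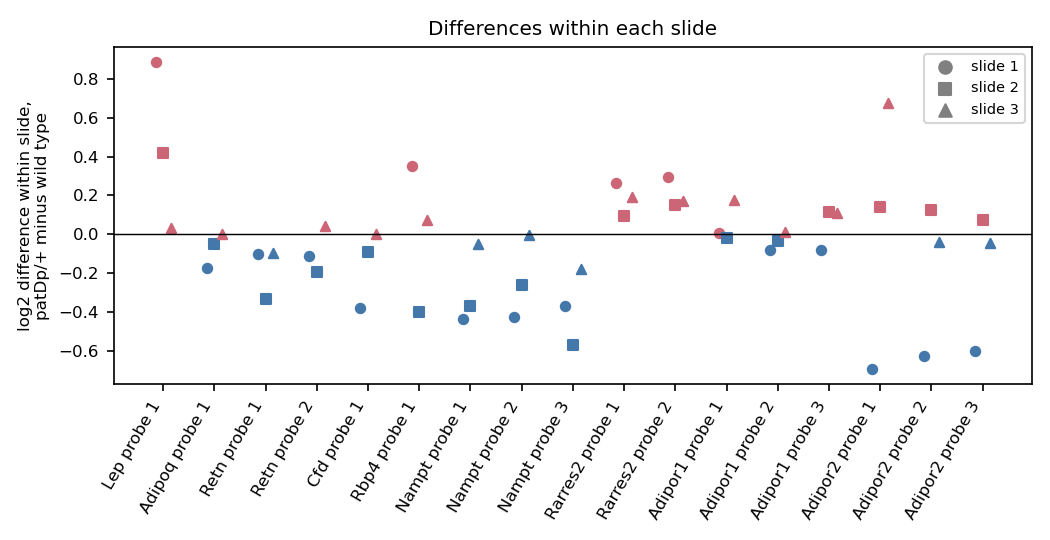
Log2 difference between the patDp/+ and the wild type array of each slide (marker shape) for the 17 tested probes; red is above 0 and blue below. The 3 Nampt probes lie below 0 and the 2 Rarres2 probes above 0 on every slide, and Lep ranges from 0.03 to 0.89.

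No spot of the 10 genes was marked as saturated. For 8 probes, of Adipoq, Retn, Cfd, Rbp4, Rarres2 and Adipor2 probe 2, the scanner software took the value on all 6 arrays from a second scan at low gain and scaled it up, and for the other 10 probes it did so on none. The Lep and Nampt values come from the ordinary scan. With normexp background correction, differences moved for probes of both scans. The move was toward lower values in patDp/+ at every tested probe except Nampt probe 3 and Adipor2 probe 1, which moved up. From the low-gain scan, Adipoq gave -0.23, Retn probes 1 and 2 -0.31 and -0.24, Cfd -0.31 and Adipor2 probe 2 -0.28. From the ordinary scan, Lep gave 0.33, Nampt probes 1 to 3 -0.38, -0.32 and -0.29, and Adipor2 probe 3 -0.28. Adipor1 probes 1 to 3 gave -0.038, -0.12 and 0.043, and Adipor2 probe 1 gave 0.26. The scanner software's own error was about 10.0% for nearly all tested probes and at most 11.0%, on Adipor2 probe 1.

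Genes that act with the adipokines were followed in 11 lists of 161 genes, chosen with earlier results of these data known, of which 145 were measured. In limma 0 of the 145 passed adjustment over all probes. At an unadjusted p under 0.05 there were 16, or 11% of the measured genes, 10 higher and 6 lower, beside 5.15% of all tested probes. Because of how the lists were chosen, that share is no evidence about them. The median difference over the 145 genes was 0.01, with 74 above 0 and 71 below.

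In leptin signalling, 12 of 14 genes were measured, and Lepr, the leptin receptor gene, was not among them. Of the 12, 1 was higher and 0 lower at an unadjusted p under 0.05, with a median of 0.03. That gene was Socs3, a feedback inhibitor that leptin and other cytokines induce, at 0.83 to 1.07 in wild type and 1.27 to 1.97 in patDp/+. Its difference was 0.62 ± 0.19 (limma, unadjusted p 0.0150, adjusted p 0.951). Ptpn1, a phosphatase that damps leptin and insulin signalling, gave 0.19 ± 0.10, and Stat3, the transcription factor that leptin activates, gave 0.15 ± 0.15.

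Among 18 genes of adiponectin reception and signalling, 1 was higher and 1 lower at that threshold, with a median of -0.02. Prkag2, a regulatory subunit of AMP-activated kinase, read 0.38 to 0.57 in wild type and 0.15 to 0.25 in patDp/+, a difference of -0.28 ± 0.08. Acer3, a ceramidase, gave 0.36 ± 0.12. Cdh13, which encodes T-cadherin, a binding partner of adiponectin multimers, read 2.37 to 2.76 in wild type and 2.16 to 2.25 in patDp/+, a difference of -0.29 ± 0.12 (limma, unadjusted p 0.0548). The 9 genes for folding and release of adiponectin had 0 at that threshold and a median of 0.07. Ero1a, an oxidase that acts with Erp44 in the retention and release of adiponectin, read 0.14 ± 0.07 higher in patDp/+ without overlap.

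Among 12 relatives of adiponectin with a C1q domain, 1 was higher and 1 lower at an unadjusted p under 0.05, and the median was 0.19. C1qtnf7 read 1.03 to 1.13 in wild type and 1.30 to 1.71 in patDp/+, a difference of 0.46 ± 0.13, and the dim C1qtnf4 gave -0.39 ± 0.15. C1qc, a complement component made by macrophages, gave 0.27 ± 0.12. The list around resistin had 4 measured genes, of which only Retnla and Retnlg belong to its family. All 4 were above 0 and 0 were at the threshold. Retnla, a product of alternatively activated macrophages, gave 0.16 ± 0.08.

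The lists around the other adipokines held few differences. In the alternative complement pathway of adipsin, 1 of 11 measured genes was higher at an unadjusted p under 0.05, the dim Cfi at 1.38 ± 0.50, with a median of 0.05. The Cfi groups overlapped, at -5.97 to -4.38 in wild type and -4.70 to -3.48 in patDp/+. Within slides 1, 2 and 3 the Cfi difference was 2.15, 2.31 and -0.32. Cfb, the factor that adipsin cleaves, gave 0.28 ± 0.16. Retinol transport around Rbp4 had 0 of 8 and a median of 0.04. NAD salvage around Nampt had 0 of 14, with 4 above 0 and 10 below and a median of -0.04, including -0.15 ± 0.09 for the NAD kinase gene Nadk, -0.13 ± 0.12 for the NAD-dependent deacetylase gene Sirt1 and 0.26 ± 0.13 for the NAD-consuming Bst1. Chemerin receptors and processing had 0 of 6 and a median of -0.17, and Ccrl2, a receptor that binds chemerin without signalling, gave -0.25 ± 0.12.

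Among 36 measured other secreted factors of fat, 6 were higher and 4 lower at an unadjusted p under 0.05, and the median was 0.03. Sfrp5, a secreted Wnt inhibitor, was dim, at -4.96 to -4.05 in wild type and -3.37 to -1.98 in patDp/+, a difference of 1.78 ± 0.40. Fndc5, the precursor of irisin, read -1.26 to 0.72 in wild type and -2.58 to -1.84 in patDp/+, a difference of -1.95 ± 0.51. Saa3, an acute phase protein, gave 0.37 ± 0.10. The 15 factors that act on adipokine promoters had 0 at the threshold, with 4 above 0 and 11 below and a median of -0.07. Srebf1, a regulator of lipid synthesis, gave -0.18 ± 0.10, Esrra gave -0.17 ± 0.09, and Nr1h3, which encodes the oxysterol receptor LXR alpha, gave -0.14 ± 0.08.

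**Figure D5:**
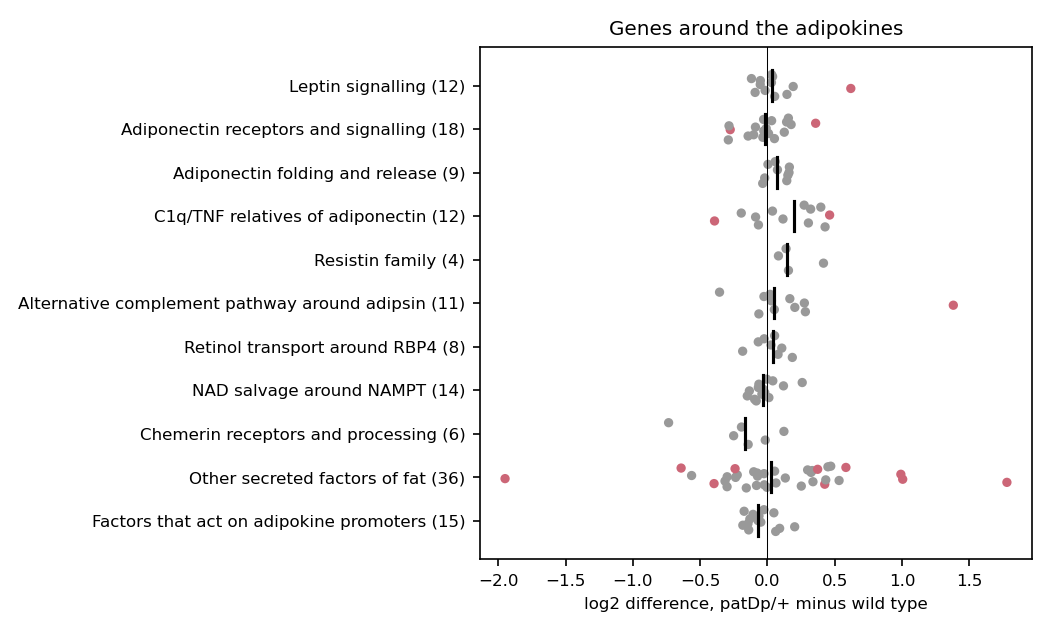
Log2 difference between patDp/+ and wild type for the measured genes of each list (number in brackets); points are genes, red at an unadjusted limma p under 0.05, and black bars the list medians. Medians lie between -0.17 and 0.19, and the farthest points, Sfrp5 at 1.78 and Fndc5 at -1.95, are in the list of other secreted factors.

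The genes whose values were most like those of Lep over the 6 arrays were Fam111a (Pearson r 0.997), 5031439G07Rik (0.993), P2ry6 (0.992), Elovl1 (0.991) and Sh3pxd2b (0.990). For Adipoq they were Flt1 (0.991), Ttyh1 (0.990), Hexim2 (0.986), Ivd (0.985) and Egf (0.984). These are the highest of many correlations over 6 arrays and are a description only.

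The arrays were checked against their labels. Snrpn, in the duplicated stretch, read -0.77 to -0.48 in wild type and 0.43 to 0.77 in patDp/+, a difference of 1.19 ± 0.13. Adipocyte markers were present, with 7 of 8 measured (no probe was named Pck1). Of these, 1 was above 0, 0 were at an unadjusted limma p under 0.05 and the median difference was -0.10, and the summed level, relative to the 75th percentile, was 1350 to 1572 in wild type and 1315 to 1498 in patDp/+. Pnpla2 had no value on the array of wild type replicate 2, so the sum of that array leaves it out. All 7 macrophage markers were above 0, with 0 at that threshold, a median of 0.22 and a summed level of 209 to 229 in wild type and 223 to 277 in patDp/+. The sums add values that are not on the log2 scale, so the brightest markers weigh most. Most of the macrophage sum is Lyz2, with a log2 mean of 7.59 in wild type and 7.73 in patDp/+. All 5 measured T cell markers were above 0, 2 of them at that threshold, and of 4 B cell markers 0 were above 0 and 1 was at the threshold. All 5 endothelial markers were below 0, with a median of -0.17, and all 5 mesothelial markers were above 0, with a median of 0.08, and 0 of either list were at the threshold. The summed level ran from 18.1 to 20.3 in wild type and 15.8 to 19.4 in patDp/+ for the endothelial list, and from 22.8 to 29.9 and 27.6 to 36.3 for the mesothelial list. Of 6 epididymis markers, 4 (Lcn5, Lcn8, Crisp1 and Adam7) were not well above background on enough arrays. The 2 measured, Lcn9 and Rnase10, were dim and gave -0.09 ± 0.12 and -0.59 ± 0.28, with 0 at the threshold. The part of these cell types in the values of Lep and Nampt was not tested. Negative control spots had a mean net signal of 37.8 in patDp/+ replicate 1, the array with the highest Lep value, and of 30.7 to 33.1 elsewhere. The Lep intensity on that array was 7404.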

How the data were processed

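Per the file headers, arrays were quantified with Feature Extraction 9.5.1.1, whose processed intensity is background-subtracted and detrended within an array. The submitters' processing notes name Feature Extraction 9.5 and limma 3.18.2. A second set of values, on the log2 scale with shared quantiles, was deposited by the authors and used as an alternative. Its background correction is not stated in the labels or headers. Groups came from the sample titles, since the source name calls every sample wild type.

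The values used are log2 of the processed intensity minus each array's 75th percentile, without controls and spots marked as outliers, with spots of a probe averaged. Probes well above background on at least 3 of 6 arrays were kept. The comparison used lmFit and eBayes of limma 3.58.1 (R 4.3.3, two-sided, no covariates), adjusted over all kept probes at a threshold of 0.05, and single values by exact permutation. The script was tested on simulated data. The number of arrays limits the precision.

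All 10 genes were named with every probe. From each list, up to 3 members with the smallest unadjusted p were eligible, read from the brightest kept probe, and 5 genes most like Lep and Adipoq. Members, lists and markers were chosen with earlier results of these data known. Symbols were updated through RefSeq accessions (GRCm38.p6, 27050 probes matched). Alternatives covered background, normalization, the deposited table, filters, probe choice, saturated and marked spots, slide block, array weights, variance model and leaving out each array.

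Deviations from the group means of arrays with the same replicate number correlated at 0.12, -0.10 and -0.03. Those of arrays with different numbers correlated at -0.14 to 0.14. With so few arrays, these values cannot exclude a slide effect. The main fit had no block because the labels do not tie the replicate numbers to a litter, batch or day. A fit with slide as a block was run as an alternative.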

Additional observations from a re-analysis of the deposited data

How the results depend on the processing

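Under all 18 alternatives 0 probes of the 10 genes passed adjustment over all probes in limma, with a smallest adjusted p of 0.400 (Lep without patDp/+ replicate 3). The count of these probes at an unadjusted p under 0.05, 2 in the main setting, was 4 in the deposited table, 1 with 1 probe per gene, 5 with array weights, 4 with variance trend and robust estimation, and 0 to 4 leaving out each array. The replicate block, which is also the slide block, gave 1. Over all probes the count of 1442 was 2538 with array weights and 1029 to 2432 leaving out each array (2432 without patDp/+ replicate 3). Lep, Adipoq, Retn, Cfd, Nampt, Rarres2, Adipor1 probe 3 and Adipor2 probe 3 kept their sign in every alternative run on them. Signs turned for Rbp4, Adipor1 probes 1 and 2 and Adipor2 probes 1 and 2. Rbp4 was -0.14 with normexp, -0.014 with quantile normalization, -0.12 with array weights and -0.13 to 0.13 leaving out each array. Adipor1 probe 1 was -0.038 with normexp and -0.026 to 0.13 leaving out each array, and Adipor1 probe 2 was -0.067 to 0.014. Adipor2 probe 1 was -0.031 in the deposited table and -0.29 to 0.56 leaving out each array, and Adipor2 probe 2 was -0.31 to 0.0032. The cause of these shifts was not tested. Signal over background was too low to test Serpina12.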
